A study of Mus musculus with 8 samples.

Results

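The genes of the circadian clock were examined in gastrocnemius, the large calf muscle, of mice lacking BCATm, the mitochondrial enzyme that transaminates the branched-chain amino acids. The set was 10 genes chosen by symbol, namely Arntl, Clock, Per1, Per2, Per3, Cry1, Cry2, Nr1d1, Nr1d2 and Dbp, out of 38741 distinct symbols in the deposited table. Each symbol had a single entry in the table. The knockout (KO) group held 4 male mice of 10 to 11 weeks and 15 to 24 g, homozygous for the Bcat2 allele named Bcat2tm1.2Clyn. The wild-type (WT) group held 4 male mice of 9 to 10 weeks and 22 to 25 g. Both groups were C57BL6 and could eat from chow or from a diet without branched-chain amino acids, as they preferred. The muscle was frozen under isoflurane, and the sources used here do not give the time of day at which it was taken.

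The clock is a loop of transcription and translation that runs in nearly every cell, muscle fibres included. ARNTL (BMAL1) and CLOCK bind E-box sequences as a pair and switch on the Per, Cry and Nr1d genes and Dbp. PER and CRY proteins return to the nucleus and block that pair, while NR1D1 and NR1D2 (REV-ERBα and REV-ERBβ) repress Arntl through ROR elements, where ROR proteins activate it. DBP acts on D-boxes, which NFIL3 represses. Because of this wiring, Arntl RNA and the RNAs of the Per genes, Nr1d1 and Dbp peak at opposite phases of the day. Each mouse was sampled once, so the values below are single points of that cycle and not rhythms.

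The sequences that the loop acts through were looked for in the promoters, since the phase relation of activators and repressors rests on them. RefSeq promoter windows (GRCm38.p6), running from 250 bases before to 50 bases after a gene's start, were matched by symbol for 9 of the 10 genes, in 13 windows. Per2 had no entry. Motifs were searched on both strands, namely the E-box CACGTG, the related E′-box CACGTT, the D-box TTANGTAA and the ROR element core TAGGTCA. None of the matches overlapped another. The E-box stood in a window of Per1 and of Cry1, and in 7.15% of all 32851 promoter windows. The E′-box stood in Cry1, Cry2 and Nr1d1, against 4.69% of all windows. The D-box stood in Per3 alone among these genes, at 2 positions, against 2.32% of all windows. The ROR core stood in 1 of the Arntl windows, against 2.61% of all windows. The windows below were chosen as the ones that hold each kind of motif for an activator, a nuclear receptor repressor, a Per gene and a Cry gene. Capitals mark the motif matches, and positions count from the start site to the first base of a match.
Arntl, chr7:113207261-113207560, plus strand, ROR core at position 30: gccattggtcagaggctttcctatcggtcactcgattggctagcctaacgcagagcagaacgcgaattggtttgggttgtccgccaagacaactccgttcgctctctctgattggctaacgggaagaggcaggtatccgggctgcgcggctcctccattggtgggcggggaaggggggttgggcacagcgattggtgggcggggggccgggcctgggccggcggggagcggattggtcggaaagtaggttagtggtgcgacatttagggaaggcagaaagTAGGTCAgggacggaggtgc
Nr1d1, chr11:98775328-98775627, minus strand, E′-box at position -28: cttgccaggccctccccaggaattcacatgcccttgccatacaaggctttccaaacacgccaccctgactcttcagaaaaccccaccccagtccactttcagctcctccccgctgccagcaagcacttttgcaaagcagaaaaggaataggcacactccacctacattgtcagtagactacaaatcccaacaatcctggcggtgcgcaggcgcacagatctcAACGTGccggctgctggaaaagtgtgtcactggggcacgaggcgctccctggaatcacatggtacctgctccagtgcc
Per3, chr4:151044616-151044915, minus strand, D-boxes at positions -205 and -158: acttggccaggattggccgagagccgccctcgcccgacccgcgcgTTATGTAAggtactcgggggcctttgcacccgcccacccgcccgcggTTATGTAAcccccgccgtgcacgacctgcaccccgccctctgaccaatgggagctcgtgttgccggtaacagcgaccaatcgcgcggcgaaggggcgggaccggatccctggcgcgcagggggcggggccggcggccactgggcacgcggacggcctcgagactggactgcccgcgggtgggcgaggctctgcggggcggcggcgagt
Cry1, chr10:85185005-85185304, minus strand, E′-box at position -79 and E-box at position -60: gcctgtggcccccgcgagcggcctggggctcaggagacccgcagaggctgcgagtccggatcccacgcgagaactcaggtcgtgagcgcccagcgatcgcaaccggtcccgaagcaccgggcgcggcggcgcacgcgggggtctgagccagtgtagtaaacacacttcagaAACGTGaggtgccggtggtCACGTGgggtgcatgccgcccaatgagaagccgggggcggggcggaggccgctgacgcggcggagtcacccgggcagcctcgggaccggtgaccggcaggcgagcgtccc
A match describes letters in a window and shows neither binding nor its absence.

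Values were FPKM, which divide the fragments of a gene by its exonic length and by the library's mapped fragments, and from which read totals cannot be had. Differences were tested with limma over 11118 genes with a mean of at least 1 FPKM, on log2(FPKM + 1), KO minus WT, with p adjusted by Benjamini-Hochberg and called under 0.05. The targeted gene Bcat2 averaged 3.29 ± 1.37 FPKM in KO muscle and 53.2 ± 19.9 FPKM in WT muscle (SD, n = 4 each), a log2 fold change of -3.65 (adjusted p = 0.00245). The 5 muscle fibre markers measured were above 0 in every mouse. The library of KO8 stood apart, its tested genes lying at a median of -0.35 on the log2 scale relative to their 8-mouse mean, while the other 7 libraries lay between -0.07 and 0.16. KO8 also had 471 FPKM of the 5S ribosomal RNA gene n-R5s195, against 0 to 22.1 FPKM in the other 7 mice. A rescaling of each library by the median ratio of its genes to their mean (median-ratio scaling) was therefore given beside results that it moves. KO6 and WT1 held fat transcripts, with a summed level of 6 adipocyte markers of 2560 FPKM in KO6 and 6390 FPKM in WT1, against 39.7 to 518 FPKM elsewhere. KO6 also held skin transcripts, with 439 FPKM over 4 keratinocyte markers, against at most 2.58 FPKM elsewhere. Only the group is known for each KO column, so no age or weight could be tied to KO5 to KO8. In whole muscle, fewer cells of a type and less RNA per cell cannot be told apart.

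No clock gene differed between KO and WT muscle past the threshold. Of the 10 genes, 9 had a mean of at least 1 FPKM and were tested with limma, and Per2 was not. None of the 9 had an adjusted p under 0.05, against 0.027% of all tested genes, and none had an unadjusted p under 0.05, against 10.3% of all tested genes, 7.33% lower and 2.99% higher in KO muscle. None had KO and WT values that did not overlap, a pattern seen in 6.75% of all tested genes. The estimate was above 0 for 2 of the 9 genes and below 0 for 7, and 63.6% of all tested genes were below 0. Dbp, whose estimate rests on values listed at 0, is counted among the 7. The median log2 fold change of the 9, Dbp included, was -0.15, beside -0.12 for all tested genes. Without Dbp the median would lie between the estimates of Cry1 (-0.15) and Arntl (-0.04), which are on either side of -0.12. After median-ratio scaling, 4 estimates were above 0 and 5 below, with a median of -0.03, Dbp included again. The smallest exact 2-sided p that 70 labelled splits of 4 and 4 mice allow is 0.0286, and it was reached by none of the 10 genes.

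**Figure D1:**
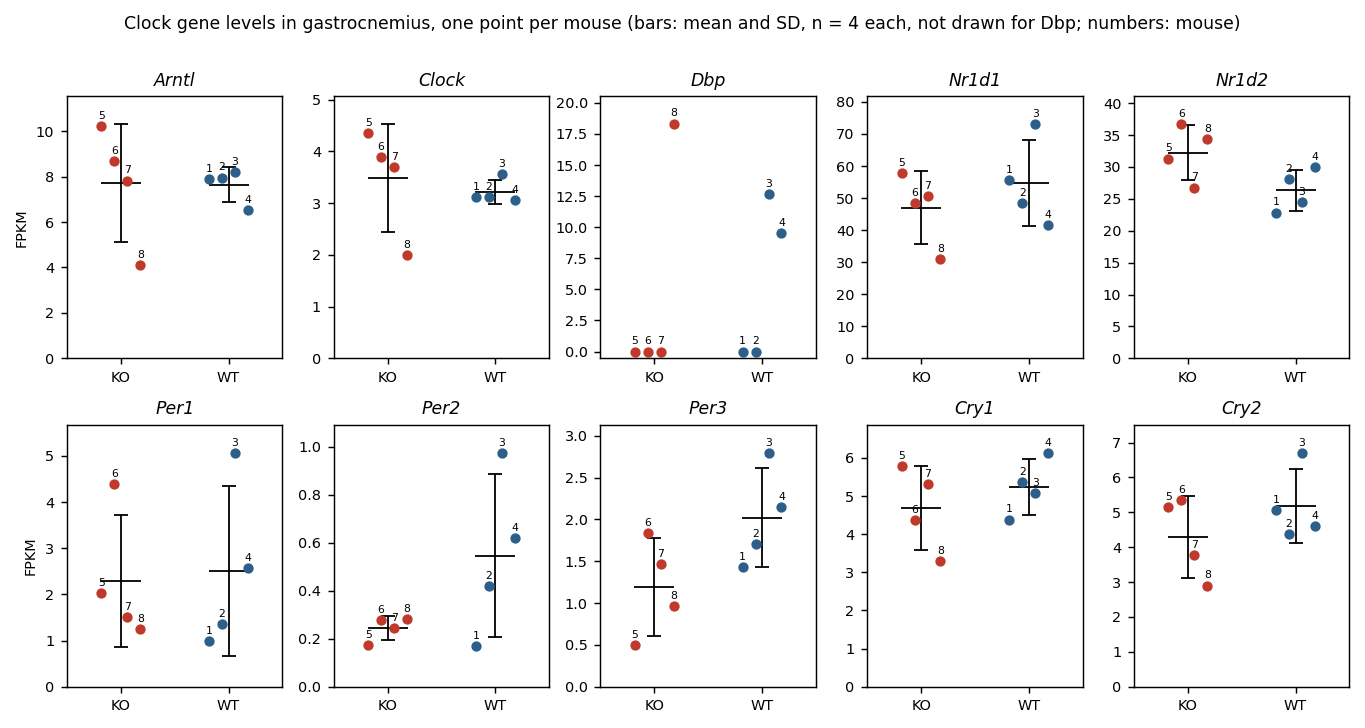
FPKM of the 10 clock genes, KO mice (5 to 8, red) left and WT mice (1 to 4, blue) right in each panel, with the mean and SD of 4 mice as bars except for Dbp, whose exact 0 values may be failed estimates. KO and WT values overlap for every gene, KO8 is lowest for Arntl, Clock, Nr1d1, Cry1 and Cry2, and Dbp is above 0 in KO8, WT3 and WT4.

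The levels, which FPKM puts on a per-length scale, were led by the 2 REV-ERB genes. Nr1d1 averaged 47.0 ± 11.4 FPKM in KO and 54.7 ± 13.5 FPKM in WT muscle, and Nr1d2 averaged 32.3 ± 4.27 FPKM in KO and 26.3 ± 3.25 FPKM in WT muscle (SD, n = 4 each). Arntl followed with means of 7.71 FPKM in KO and 7.65 FPKM in WT muscle. Cry1, Cry2 and Clock came next, with group means between 3.21 and 5.24 FPKM and ranges that overlapped among the 3. Per1 and Per3 lay between group means of 1.19 and 2.50 FPKM with overlapping ranges, and Per2 was lowest.

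The activators did not separate by genotype, and KO8 lay lowest for both. Gene positions are given in mm10, counted from 1. Arntl (chromosome 7, 113207465 to 113314122), the obligate partner of CLOCK, had 10.2, 8.68, 7.83 and 4.12 FPKM in KO5 to KO8, against 7.90, 7.96, 8.21 and 6.52 FPKM in WT1 to WT4. The KO values enclosed those of WT, with 2 KO mice above the highest WT mouse and KO8 below the lowest. Its mean was 7.71 ± 2.59 FPKM in KO and 7.65 ± 0.765 FPKM in WT (SD, n = 4 each), a log2 fold change of -0.04 (SE 0.24, 95% interval -0.58 to 0.49, limma adjusted p = 0.946). The estimate turned to 0.08 after median-ratio scaling and to 0.19 without KO8. Clock (chromosome 5, 76212177 to 76304548), the histone acetyltransferase partner, had 4.36, 3.90, 3.71 and 1.99 FPKM in KO5 to KO8, against 3.12, 3.12, 3.56 and 3.06 FPKM in WT1 to WT4. Here 3 KO mice lay above every WT mouse and KO8 below every one. The mean was 3.49 ± 1.04 FPKM in KO and 3.21 ± 0.235 FPKM in WT (SD, n = 4 each), a log2 fold change of 0.06 (SE 0.19, interval -0.38 to 0.50, limma adjusted p = 0.904), and 0.24 without KO8. The highest KO value exceeded the lowest 2.48-fold for Arntl and 2.19-fold for Clock, against 1.26-fold and 1.17-fold among WT mice. Without KO8 the KO ratios were 1.30-fold for Arntl and 1.18-fold for Clock, close to those of WT.

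The REV-ERB repressors had estimates of opposite sign. Nr1d1, a nuclear receptor that silences Arntl, had 57.9, 48.5, 50.6 and 30.9 FPKM in KO5 to KO8, against 55.7, 48.4, 73.0 and 41.5 FPKM in WT1 to WT4. The groups overlapped widely, with KO8 lowest and WT3 highest of all. Its log2 fold change was -0.22 (SE 0.24, interval -0.76 to 0.32, limma adjusted p = 0.671), -0.07 after median-ratio scaling and -0.04 without KO8. Nr1d2 (chromosome 14, 18204054 to 18239127), its paralog with the same target sites, had 31.3, 36.7, 26.8 and 34.3 FPKM in KO5 to KO8, against 22.8, 28.1, 24.5 and 30.0 FPKM in WT1 to WT4. Of the KO mice, 3 lay above every WT mouse, and KO7 lay inside the WT range. The log2 fold change was 0.28 (SE 0.15, interval -0.06 to 0.62, unadjusted p = 0.093, limma adjusted p = 0.488), the exact permutation p was 0.114 (2-sided, n = 4 each), and the estimate was 0.43 after scaling. It was 0.14 with array weights and 0.16 without KO6 and WT1, the mice with fat transcripts. The difference between the paralogs' estimates was not tested.

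Within single mice the balance of the 2 REV-ERB genes varied. The Nr1d2 to Nr1d1 ratio was 0.541, 0.756, 0.529 and 1.11 in KO5 to KO8, against 0.410, 0.580, 0.336 and 0.722 in WT1 to WT4. Nr1d1 was thus the higher of the pair in 7 of the 8 mice, and KO8 was the exception. In KO8, Nr1d2 was the one clock gene other than Dbp that lay above its 8-mouse mean, at 0.24 on the log2 scale as deposited. After scaling Nr1d2 lay at 0.66 in KO8 and Per2 at 0.0076. A ratio within a library does not depend on that library's scaling.

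Nr1d1 was the one clock gene that the authors' deposited table flagged at p < 0.05, and it was not flagged at p < 0.001. The sources used here do not give the test behind the flags, and the authors' deposited table flags 6.39% of all symbols and 20.2% of the tested genes at p < 0.05. Nr1d1 lies on chromosome 11 at 98767932 to 98775333 (mm10) and overlaps Thra, the thyroid hormone receptor alpha gene, on the other strand. The overlap holds 263 of the 3077 exonic bases of Nr1d1 (8.55%). Thra had 10.8 to 16.4 FPKM in KO and 17.0 to 23.6 FPKM in WT mice, groups that did not overlap, with a log2 fold change of -0.41 (unadjusted p = 0.0479, limma adjusted p = 0.484). Whether the counting used strand is not stated in those sources, so reads of the shared bases cannot be told apart.

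**Figure D2:**
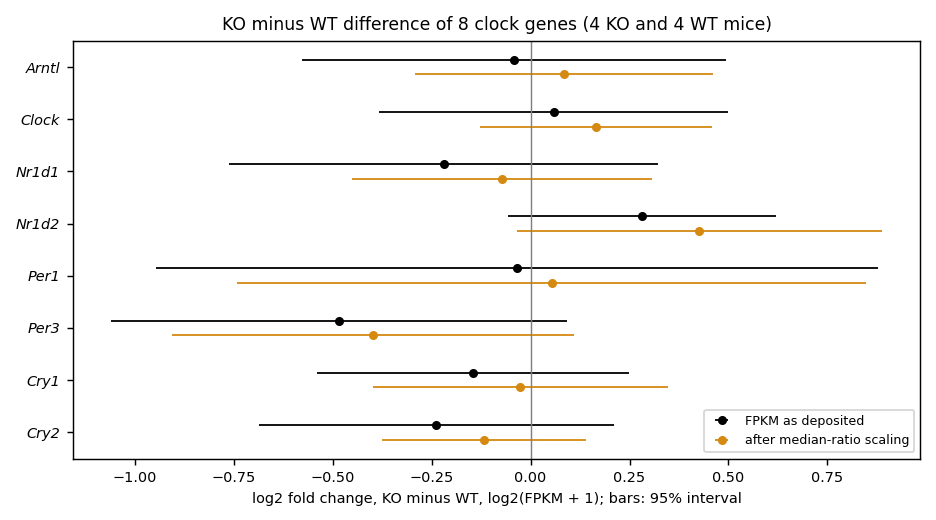
Log2 fold change, KO minus WT, of 8 clock genes on the log2(FPKM + 1) scale, with 95% intervals from limma (4 KO and 4 WT mice), as deposited (black) and after median-ratio scaling (orange). All 16 intervals include 0, and the estimates of Arntl and Per1 lie on opposite sides of 0 in the 2 scalings.

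The Per genes, which encode the proteins that carry the inhibition back to the nucleus, varied several-fold between mice of 1 genotype. Per1 (chromosome 11, 69095217 to 69109960) had 2.03, 4.38, 1.51 and 1.25 FPKM in KO5 to KO8, against 0.987, 1.36, 5.07 and 2.58 FPKM in WT1 to WT4. KO6 and WT3 were the high mice of their groups, and the highest of all 8 values was 5.13-fold the lowest. The log2 fold change was -0.04 (SE 0.40, interval -0.95 to 0.88, limma adjusted p = 0.974). Without WT1 and KO6, the mice with fat transcripts, it was -0.53 (limma adjusted p = 0.498). Per1 is also induced directly by glucocorticoids and by immediate early signals. The summed level of 6 glucocorticoid-responsive genes was 251 FPKM in KO6 and 201 FPKM in WT3, and 106 to 223 FPKM in the other 6 mice. The summed level of 6 immediate early genes was 68.7 FPKM in KO6 and 68.2 FPKM in WT3, the 2 highest, and 27.5 to 49.7 FPKM elsewhere. In WT3 the sum was mostly Nr4a1, at 53.1 FPKM. Without Nr4a1 the sum was 34.6 FPKM in KO6 and 31.9 FPKM in KO5, against 15.1 FPKM in WT3 and 18.8 FPKM in WT1. Their part in the Per1 values was not tested.

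Per2 (chromosome 1, 91415984 to 91459330), the main PER inhibitor, had 0.174, 0.278, 0.246 and 0.281 FPKM in KO5 to KO8, against 0.169, 0.421, 0.975 and 0.619 FPKM in WT1 to WT4. The 4 KO mice lay close together and 3 WT mice lay above all of them, while WT1 was lowest of all. The mean was 0.245 ± 0.0494 FPKM in KO and 0.546 ± 0.341 FPKM in WT, and the exact permutation p of the log2 difference of -0.29 was 0.143 (2-sided, n = 4 each). The difference was below 0 under every alternative of this test, but its size and its p depended on single WT mice. Without WT1 it was -0.41 with an exact p of 0.0286, the smallest that 4 against 3 mice allow, and without WT3 it was -0.16 with an exact p of 0.229. With any other mouse left out the exact p lay between 0.171 and 0.229. Without both WT1 and KO6, the mice with fat transcripts, the difference was -0.43. Its exact p was then 0.1, the smallest that the remaining mice allow. The read depth behind these low values is unknown. Per3 (chromosome 4, 151003652 to 151044665), a PER paralog that is less needed for rhythm, had 0.497, 1.84, 1.47 and 0.960 FPKM in KO5 to KO8, against 1.43, 1.71, 2.80 and 2.15 FPKM in WT1 to WT4. KO5 and KO8 lay below every WT mouse, KO7 lay between WT1 and WT2, and KO6 lay between WT2 and WT4. The log2 fold change was -0.48 (SE 0.25, interval -1.06 to 0.09, unadjusted p = 0.0888, limma adjusted p = 0.487), -0.40 after scaling and -0.31 without KO5. Without WT1 and KO6 it was -0.72 (limma adjusted p = 0.453). The promoter window of Per3 is the one printed above with 2 D-boxes.

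The Cry genes, which encode the strongest inhibitors of ARNTL and CLOCK, had estimates below 0 with intervals that included 0. Cry1 (chromosome 10, 85131702 to 85185054) had 5.78, 4.37, 5.31 and 3.30 FPKM in KO5 to KO8, against 4.38, 5.36, 5.07 and 6.13 FPKM in WT1 to WT4. The mean was 4.69 ± 1.10 FPKM in KO and 5.24 ± 0.726 FPKM in WT (SD, n = 4 each), a log2 fold change of -0.15 (SE 0.17, interval -0.54 to 0.25, limma adjusted p = 0.702). Cry2 (chromosome 2, 92403646 to 92434043) had 5.14, 5.36, 3.77 and 2.90 FPKM in KO5 to KO8, against 5.06, 4.37, 6.71 and 4.60 FPKM in WT1 to WT4. KO7 and KO8 were below the WT range and WT3 above all others. The log2 fold change was -0.24 (SE 0.20, interval -0.69 to 0.21, limma adjusted p = 0.613). After median-ratio scaling the 2 estimates were -0.03 for Cry1 and -0.12 for Cry2, and without KO8 they were -0.02 and -0.10.

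Dbp, a PAR bZIP factor and a direct output of ARNTL and CLOCK, was listed at 0 in 5 of the 8 mice. It had 18.3 FPKM in KO8 and was listed at 0 in KO5, KO6 and KO7, against 12.7 FPKM in WT3, 9.51 FPKM in WT4 and a listed 0 in WT1 and WT2. Whether an exact 0 in this table is a failed estimate or an absence of reads cannot be told from FPKM. Of the tested genes, 888 (7.99%) were listed at 0 in some mouse, and 765 of these reached 5 FPKM or more in another. No mean or fold change is therefore given for Dbp, and its exact permutation p was 1 (2-sided, n = 4 each). Dbp lies on chromosome 7 at 45705088 to 45710155 (mm10), starting 115378 bases beyond the end of the targeted gene Bcat2. It shares 539 of its 2993 exonic bases (18.0%) with Sphk2 on the other strand, which had 8.23 to 10.7 FPKM in KO and 8.37 to 11.1 FPKM in WT mice.

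The profiles of single mice differed within each genotype. KO5 had the highest Arntl and Clock values and the lowest Per3 value, at 0.40, 0.32 and -0.75 on the log2 scale from the 8-mouse means. KO8 had the lowest Arntl and Clock values, at -0.73 and -0.52, which were -0.37 and -0.22 after median-ratio scaling and still the lowest of the 8 mice. WT3 had the highest Per1, Per2, Per3, Cry2 and Nr1d1 values, at 0.95, 0.52, 0.59, 0.45 and 0.55, and it remained highest for these 5 genes after scaling. WT4 came next for Per2 and Per3, at 0.24 and 0.32. WT3 and WT4 were also the WT mice with Dbp above 0, while KO8, with the highest Dbp value, had 0.281 FPKM of Per2 and 0.960 FPKM of Per3, below 3 and 4 WT mice.

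**Figure D3:**
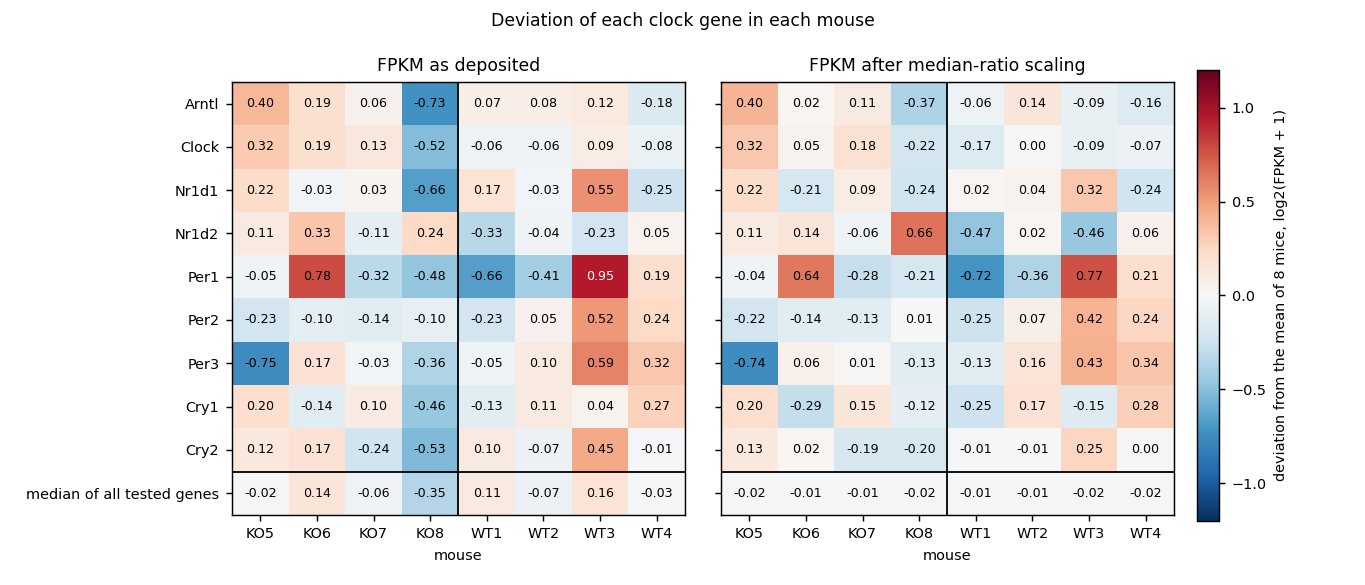
Deviation of 9 clock genes in each mouse from the mean of the 8 mice on the log2(FPKM + 1) scale, KO mice left of WT mice, as deposited (left) and after median-ratio scaling (right), with the median of all tested genes at the bottom. KO8 is low for most genes as deposited, at a library median of -0.35, but stays low for Arntl (-0.37) and high for Nr1d2 (0.66) after scaling.

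Activators and repressors were compared through correlations over the 8 mice for all 45 pairs of the 10 genes, with exact permutation of pairings and adjustment over the 45. Each mouse was sampled once, at a time of day that is not given, so these correlations cannot show or exclude opposite phases. Pairs with Dbp are not described, since its values fall into a listed 0 and a high set. Of the other 36 pairs, 27 had a positive Pearson r, 6 had an unadjusted p under 0.05, and 1 passed the threshold. That pair was Arntl and Clock, with r = 0.955 (permutation p = 0.000496, adjusted p = 0.0223) and Spearman's rho = 0.833 (permutation p = 0.0154, adjusted p = 0.390). Without KO5 and KO8, the mice farthest from the Arntl median, r was 0.665. With values centred on genotype means, r was 0.973. After median-ratio scaling r was 0.898 (adjusted p = 0.103), and without KO8 it was 0.844 (adjusted p = 0.286). The call was also lost when KO5, KO6, WT1, WT3 or WT4 was left out, with adjusted p from 0.0536 to 0.286 over the 6 such losses, and it held without KO7 and without WT2. Within a mouse the Arntl to Clock ratio stayed between 2.07 and 2.34 in KO and between 2.13 and 2.55 in WT muscle.

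Arntl was not negatively correlated with the repressors at the threshold. With Nr1d1 its r was 0.822 (permutation p = 0.0202, adjusted p = 0.227; rho = 0.690, permutation p = 0.0694), and 0.537 without KO5 and KO8. After median-ratio scaling this r was 0.577, and without KO8 it was 0.509. With Nr1d2 the r was -0.254 (permutation p = 0.571, adjusted p = 0.734; rho = 0.095, permutation p = 0.840), and 0.273 without KO8. With Per3 the r was 0.012 (permutation p = 0.977, adjusted p = 0.998; rho = 0.024, permutation p = 0.977), but -0.538 after scaling, -0.674 without KO8 and 0.617 without KO5, and none of these passed the threshold. With Per1 the r was 0.328 (permutation p = 0.456, adjusted p = 0.722; rho = 0.476, permutation p = 0.243), and with Per2 it was -0.060 (permutation p = 0.874, adjusted p = 0.936; rho = -0.190, permutation p = 0.665). With Cry1 the r of 0.636 (permutation p = 0.0993, adjusted p = 0.319; rho = 0.143, permutation p = 0.752) was -0.810 without KO5 and KO8. It was -0.194 without KO8 alone and 0.571 without KO5 alone. After median-ratio scaling it was 0.385, and 0.337 with that scaling without KO8, so leaving out KO8 turned its sign only as deposited. With Cry2 the r was 0.744 (permutation p = 0.0468, adjusted p = 0.283; rho = 0.786, permutation p = 0.0279), and 0.362 without KO5 and KO8.

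Among the repressors, Per2 and Per3 had r = 0.787 (permutation p = 0.0201, adjusted p = 0.227; rho = 0.762, permutation p = 0.0368). This r was 0.525 without WT3 and WT4, the mice farthest from the Per2 median, and 0.773 after median-ratio scaling. Cry2 and Nr1d1 had r = 0.873 (permutation p = 0.00935, adjusted p = 0.210; rho = 0.714, permutation p = 0.0576), which was 0.279 without KO8 and WT3, 0.717 without KO8 alone and 0.792 without WT3 alone. After median-ratio scaling it was 0.602. Nr1d1 and Nr1d2 had r = -0.605 (permutation p = 0.106, adjusted p = 0.319; rho = -0.524, permutation p = 0.197), and -0.632 after scaling. The number of positive pairs was 21 of 36 after median-ratio scaling, and none then passed the threshold.

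**Figure D4:**
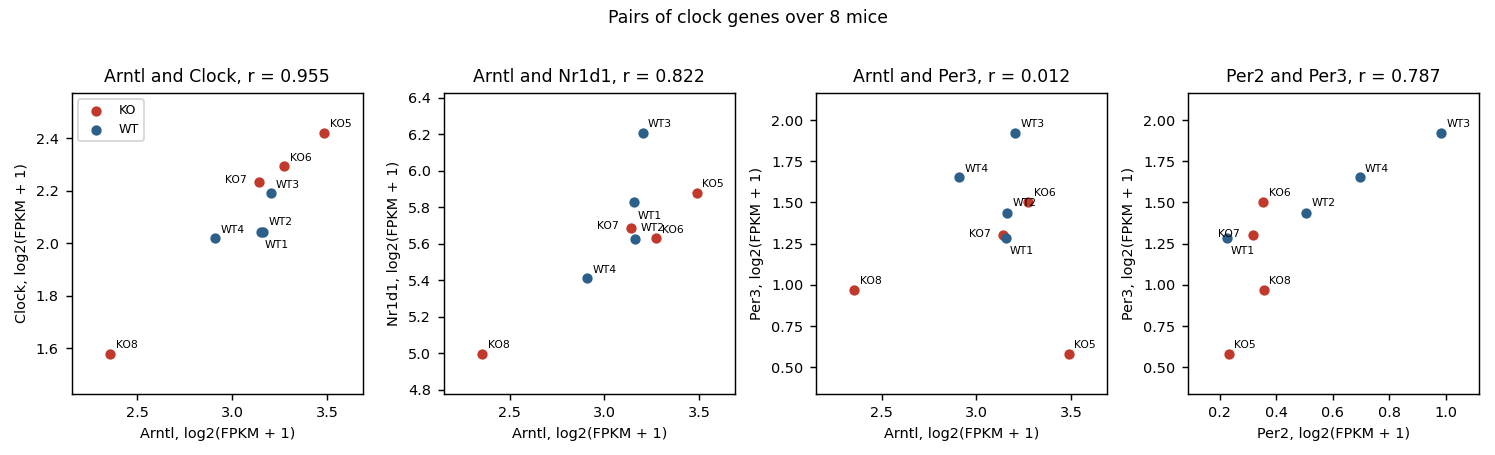
Clock and Nr1d1 against Arntl, Per3 against Arntl, and Per3 against Per2, 1 point per mouse on the log2(FPKM + 1) scale, KO in red and WT in blue, with Pearson's r over 8 mice above each panel. KO8 is the lowest point for Arntl in the first 3 panels and KO5 the highest, and KO5 is the lowest for Per3.

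The genes whose pattern over the 8 mice was most like that of Arntl were Gripap1 (r = 0.980), Prkcd (r = 0.967), Nfkbib (r = 0.962) and Ppp1r3c (r = 0.950), leaving aside the 10 clock genes. Their r after median-ratio scaling was 0.940, 0.849, 0.913 and 0.889. The lowest r belonged to n-R5s195 (-0.936), n-R5s205, Cox20 and Snord23 (each -0.880), of which the last 3 were above 0 in KO8 alone.

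Of 20 further clock genes in the table, 16 were tested and none had an adjusted p under 0.05. An unadjusted p under 0.05 was found for 1, against 10.3% of all tested genes, 7.33% lower and 2.99% higher in KO muscle. Estimates were above 0 for 3 and below 0 for 13, with a median log2 fold change of -0.29, and -0.17 after scaling. Of all tested genes 63.6% were below 0, with a median of -0.12, and -0.0012 after scaling. The 1 gene was Bhlhe41 (DEC2), a repressor of ARNTL and CLOCK at E-boxes, with 4.48, 5.96, 7.29 and 6.24 FPKM in KO5 to KO8, against 6.50, 9.64, 9.84 and 14.5 FPKM in WT1 to WT4. KO7 alone lay inside the WT range, and the log2 fold change was -0.64 (SE 0.23, unadjusted p = 0.0223, limma adjusted p = 0.480). Its unadjusted p after scaling was 0.103. The authors' deposited table flagged Bhlhe41 and the PAR bZIP gene Tef at p < 0.05, 2 of the 16 tested, beside the 20.2% of all tested genes.

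Btrc, which encodes an F-box protein that marks PER proteins for destruction, was the 1 of these 16 whose groups did not overlap, a share near the 6.75% of all tested genes. It had 1.33 to 2.04 FPKM in the 4 KO mice, against 2.16 to 3.80 FPKM in the 4 WT mice, with a log2 fold change of -0.42 (SE 0.19, limma adjusted p = 0.484) and an exact permutation p of 0.0286 (2-sided, n = 4 each). Csnk1e, the kinase CK1ε that phosphorylates PER, had 11.1, 10.4, 8.85 and 5.28 FPKM in KO5 to KO8, against 10.7, 11.6, 16.7 and 11.7 FPKM in WT1 to WT4, with a log2 fold change of -0.49 (SE 0.23, limma adjusted p = 0.484). Nfil3, the D-box repressor, had 7.19, 6.09, 7.40 and 3.26 FPKM in KO5 to KO8, against 9.78, 6.46, 9.31 and 8.32 FPKM in WT1 to WT4, with a log2 fold change of -0.47 (SE 0.24, limma adjusted p = 0.486). Rora, which encodes a ROR activator of Arntl and was chosen here after its values were seen, had 9.08 to 12.5 FPKM in KO and 8.05 to 9.49 FPKM in WT mice, with a log2 fold change of 0.26 (SE 0.13, limma adjusted p = 0.486), and 0.40 after scaling (limma unadjusted p = 0.0123, adjusted p = 0.411). After median-ratio scaling the log2 fold change of Csnk1e was -0.36 (limma unadjusted p = 0.0484, adjusted p = 0.415) and that of Nfil3 was -0.35. Without KO8 the estimates were -0.29 for Csnk1e and -0.25 for Nfil3.

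Of 8 genes known as clock outputs in muscle or liver, 7 were tested and none had an adjusted p under 0.05. Estimates were above 0 for 2 and below 0 for 5, with a median log2 fold change of -0.0065, where 63.6% of all tested genes were below 0. After median-ratio scaling, 4 were above 0 and 3 below, with a median of 0.12. Usp2, a deubiquitinase, was the 1 of the 7 with an unadjusted p under 0.05, beside 10.3% of all tested genes. It had 12.6, 13.7, 16.5 and 16.2 FPKM in KO5 to KO8, against 16.1, 20.8, 38.6 and 28.8 FPKM in WT1 to WT4. WT1 alone lay among the KO mice, and the log2 fold change was -0.72 (SE 0.25, unadjusted p = 0.0210, limma adjusted p = 0.480), with an unadjusted p of 0.0754 after scaling. The authors' deposited table flagged Usp2 at p < 0.05 and at p < 0.001, and Klf10 at p < 0.05, 2 of the 7 tested, beside 20.2% of all tested genes. WT3 and WT4 were the highest mice for Usp2, as for Per2 and Per3. Klf10, a Krüppel-like factor, had 20.2, 16.6, 7.09 and 5.71 FPKM in KO5 to KO8, against 6.75, 4.78, 6.62 and 6.88 FPKM in WT1 to WT4. KO5 and KO6 stood above all other mice, KO8 lay inside the WT range, and the log2 fold change was 0.73 (SE 0.37, limma adjusted p = 0.486), and 0.45 without KO5. After median-ratio scaling Klf10 was the output gene with an unadjusted p under 0.05 (limma unadjusted p = 0.0209, adjusted p = 0.411). KO5 and KO6 also had the highest sums of glucocorticoid-responsive genes, at 223 FPKM in KO5 and 251 FPKM in KO6. Cebpd and Mt2 were highest in these 2 mice, at 46.1 and 53.3 FPKM in KO5 and 32.7 and 60.4 FPKM in KO6. Fkbp5 was highest in KO5 and Tsc22d3 in KO6, but Sgk1 and Zbtb16 were highest in WT3, at 62.5 and 7.54 FPKM. The part of these genes' signal in the Klf10 values was not tested.

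**Figure D5:**
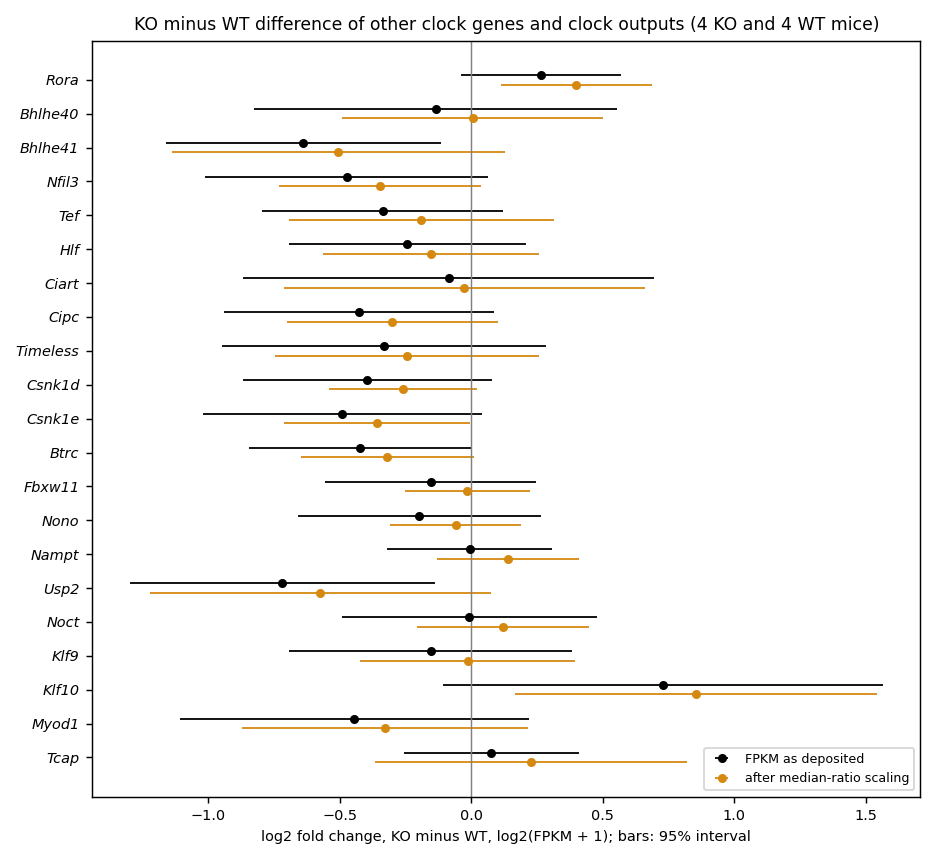
Log2 fold change, KO minus WT, of further clock genes and clock output genes that were tested, on the log2(FPKM + 1) scale with 95% intervals from limma (4 KO and 4 WT mice). Among those drawn, Bhlhe41 and Usp2 are the genes whose interval as deposited (black) excludes 0, and no gene had an adjusted p under 0.05. After median-ratio scaling (orange) the intervals of Bhlhe41 and Usp2 include 0, and those of Rora, Csnk1e and Klf10 exclude it.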

How the data were processed

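RNA of 8 gastrocnemius muscles (4 KO, 4 WT) was read single-end over 50 cycles. Per the labels' protocols, the authors aligned reads to mm10 with TopHat 2.0.9 and made FPKM with Cufflinks 2.0.2. CASAVA 1.8.2 and a different Cufflinks, 2.2.1, appear in the submitters' processing notes. The deposited FPKM stand in 1 column per mouse, per the file headers, beside flags of 0 or 1 for a p-value of the authors. WT columns matched labelled mice by number, and KO columns matched the group only. Total counts per library cannot be had from FPKM. The sources used here do not say whether mice shared a litter or a preparation, so p-values measure the spread between these samples.

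The highest-mean entry per symbol was used. Genes with a mean of at least 1 FPKM (11118) were tested with limma 3.58.1 in R 4.3.3 (limma-trend, log2(FPKM + 1), genotype as the only term, 2-sided, Benjamini-Hochberg, threshold 0.05). Such fold changes understate those of low genes. Per2 fell under the minimum and had an exact permutation test only. Correlations used Python 3.11.15 with exact permutation of the 40320 pairings. The code was tested on simulated data. Positions are 1-based, as the deposited start plus 1.

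The 10 genes and the lists were chosen with earlier results of these data known. Besides the 10 and Bcat2, the named genes were the 4 further clock genes and the 2 output genes of smallest unadjusted p, and the 4 genes with the highest and the 4 with the lowest r with Arntl, apart from provisional symbols such as Riken or LOC names. The same choice for Dbp is not given because of its listed 0 values. Other names were chosen after their values were seen. Alternatives were pseudocounts of 0.1 and 0.5, other filters, median-ratio and quantile scaling, robust estimation, array weights, summed entries, each mouse left out, WT1 and KO6 left out, and, added after seeing the data, median-ratio scaling without KO8. Some genes of the lists are not reported here.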

Additional observations from a re-analysis of the deposited data

Results flagged for a closer look

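A mouse far from the others of its genotype was looked for in 32 groups of 4 mice, by its gap to the nearest other mouse as a share of the group's range. The share passed Dixon's critical value for 4 samples in 4 groups, where chance gives about 1 in 20. For Dbp in KO mice the share was 1, since KO8 had 18.3 FPKM and KO5, KO6 and KO7 were listed at 0. Tied values fix that share at 1 for any KO8 value above 0, so the Dbp group is no test of distance. For Clock in WT mice the share was 0.874, with WT3 at 3.56 FPKM and the others at 3.06 to 3.12 FPKM. For Csnk1e in WT mice it was 0.837, with WT3 at 16.7 FPKM and the others at 10.7 to 11.7 FPKM. For Klf10 in WT mice it was 0.874, with WT2 at 4.78 FPKM and the others at 6.62 to 6.88 FPKM.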

How the results depend on the processing

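Of 547 values recomputed under alternatives, 502 kept their direction and their side of the threshold. Some of them could not change direction, since filters and robust estimation leave a fold change as it is. Summed entries left the fold changes and the correlations as they were, and a count of genes past the threshold has no direction. No clock gene, further clock gene or clock output gene tested with limma passed the threshold under any alternative run. Per2, tested by permutation, had an exact p of 0.0286 without WT1, and its difference ranged from -0.41 to -0.16 with single mice left out. The count over all genes was 3, and 2 to 10 under the alternatives, with 10 without WT1 and KO6, 8 without KO7, without WT1 or without WT2, and 5 without KO6, without WT4 or with median-ratio scaling without KO8. The Arntl and Clock correlation lost its call after median-ratio scaling (0.90), without WT1 and KO6 (0.97), centred on genotype means (0.97) and with median-ratio scaling without KO8 (0.87), and when KO5, KO6, KO8, WT1, WT3 or WT4 was left out, 6 of 8 such fits. It ranged from 0.84 to 0.97 with single mice left out. Fewer mice allow fewer pairings and so a larger smallest p. The fold change of Arntl turned positive with median-ratio scaling (0.084), quantile normalization (0.065), array weights (0.17) and median-ratio scaling without KO8 (0.22), and it ranged from -0.18 to 0.19 with single mice left out. That of Clock was -0.0054 without WT1 and KO6 and ranged from -0.038 to 0.24. That of Per1 was 0.054 with median-ratio scaling, 0.10 with quantile normalization and 0.14 with median-ratio scaling without KO8. It ranged from -0.30 to 0.28 with single mice left out and was -0.53 without WT1 and KO6. Cry1 was 0.0094 with median-ratio scaling without KO8, and Nr1d1 0.072 with array weights. The correlation of Arntl with Per1 was -0.078 with median-ratio scaling and -0.25 with that scaling without KO8. With Per2 it was 0.024 without WT1 and KO6, and ranged from -0.42 to 0.13. With Per3 it was -0.025 and -0.00054 at pseudocounts of 0.1 and 0.5, -0.54 with median-ratio scaling, -0.025 without WT1 and KO6, -0.040 centred and -0.84 with median-ratio scaling without KO8, and ranged from -0.67 to 0.62. With Cry1 it ranged from -0.19 to 0.86. With median-ratio scaling without KO8 it was -0.013 with Cry2 and 0.46 with Nr1d2, and with Nr1d2 it ranged from -0.49 to 0.27. The cause of these turns was not tested. No paired analysis was possible because the KO columns are numbered 5 to 8 and the WT columns 1 to 4. Without read counts, precision rests on the spread between 4 mice per genotype.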
